A study of Mus musculus with 8 samples.

Results

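The AP-1 transcription factor family was examined here in 9 genes, which are the rows of the deposited count table with the symbols *Fos*, *Fosb*, *Fosl1*, *Fosl2*, *Jun*, *Junb*, *Jund*, *Atf3* and *Maff*. They are 9 of the 50600 genes listed, and all 9 were among the 14497 genes kept for testing, which reached 10 counts in 2 or more of the 8 libraries. RNA came from 2 murine MPNST (malignant peripheral nerve sheath tumor) lines. NF1-MET cells derive from a tumor that carried a floxed and a deleted *Nf1* allele (Nf1 fl/ko), a lox-stop-lox MET transgene (tg/+) and a Plp-creERT transgene (tg/+) that supplies an inducible Cre, and *Met* is amplified in them. NF1-MET;sgP53 cells were made from this line with a lentiviral CRISPR-Cas9 guide to *Trp53*. Both lines carry a spontaneous *Cdkn2a* deletion and were grown in serum. Each line was given vehicle (DMSO) or capmatinib, an inhibitor of the MET receptor kinase, at 100 nM for 24 h. There were 4 groups with 2 libraries each, named NF1-MET vehicle, NF1-MET capmatinib, NF1-MET;sgP53 vehicle and NF1-MET;sgP53 capmatinib. Each genotype is represented by 1 line, so the effect of p53 loss and other differences between the lines cannot be told apart. The column names of the NF1-MET libraries hold the letters EV, which may stand for an empty vector, but the labels do not say so.

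AP-1 proteins are basic leucine zipper (bZIP) factors that bind DNA as dimers. FOS proteins commonly pair with a JUN protein, and JUN proteins can also pair with each other and with ATF and MAF proteins. The make-up of the dimer sets the strength and choice of its DNA sites. Several of the genes are immediate-early genes that growth factor signals through ERK, JNK and p38 switch on within minutes, and *Fosl1* is known to follow sustained ERK activity. In peripheral nerve, *Jun* is known for its part in the repair program of injured Schwann cells.

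Between 30116810 and 42781371 reads were counted per library. Levels are given as CPM, counts scaled to a library of fixed size after TMM normalization. To compare levels between genes, CPM was divided by the length of the gene's merged exons in kilobases to give RPKM. The predicted gene *Gm42418* took from 1.11% to 13.1% of the counts of a library, and its share differed most within a group between the NF1-MET;sgP53 capmatinib libraries, at 10.0% and 1.11%. *Trp53*, the gene targeted in NF1-MET;sgP53, had 182 and 193 CPM in NF1-MET vehicle against 97.5 and 100.1 CPM in NF1-MET;sgP53 vehicle. With capmatinib these values were 126 and 128 CPM and 68.0 and 68.8 CPM, so that the lines did not overlap in either treatment. Of 10 Schwann cell markers, 4 passed the count filter, among them *S100b*, *Gap43* and *Erbb3*, and *Sox10*, which defines the lineage, did not. The summed level of the 10 markers was 21.3 to 23.9 CPM in the vehicle libraries and 6.61 to 7.29 CPM in the capmatinib libraries, where *Gap43* had log2 values of −2.72 (NF1-MET) and −2.52 (NF1-MET;sgP53) for capmatinib against vehicle. This list moved with the treatment, and its part in the AP-1 changes was not tested. The 6 markers of other cell types summed to between 0.108 and 0.445 CPM, and none of them passed the filter. In bulk RNA, fewer cells that make a transcript and less of it per cell cannot be told apart. The labels call the libraries biological replicates and the cells were treated in duplicate, so p-values measure the spread between 2 cultures of 1 line.

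To show what lies upstream of the AP-1 genes, RefSeq promoter windows (GRCm38.p6) of 250 bases before to 50 bases after a transcription start were searched on both strands. Windows were found for 8 of the 9 genes, all but *Fosl1*, with 3 windows for *Maff* and 10 in all. The letters TGANTCA, the AP-1 consensus, matched 0 of the 10 windows and 7.81% of all 32851 windows. The letters TGACG, the core of cAMP response elements, matched 6 of the 10 windows and 20.8% of all windows. The full element TGACGTCA, which contains TGACG, matched 1 of the 10 windows, in *Maff*, and 1.79% of all. The *Jun*-type site TGACATCA matched 2 of the 10 windows, in *Jun* and *Maff*, and 3.62% of all. The CArG box, the serum response factor site, matched 0 of the 10 windows and 1.63% of all. These matches describe letters in a short window and not bound sites. Sites of any of these kinds further from the start were not searched for. The 120 bases before the start are shown for the 3 genes with the largest rises with capmatinib (*Fos*, *Atf3* and *Junb*) and for 2 genes that fell (*Fosb* and *Jun*), read 5′ to 3′ on the strand of the gene, with matches to TGACG or TGACATCA on either strand in capitals.
Fos: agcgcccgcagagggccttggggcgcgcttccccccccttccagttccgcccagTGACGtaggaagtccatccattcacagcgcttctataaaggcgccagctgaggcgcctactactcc
Atf3: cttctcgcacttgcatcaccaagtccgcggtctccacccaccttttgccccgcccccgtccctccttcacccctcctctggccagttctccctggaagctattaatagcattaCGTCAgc
Junb: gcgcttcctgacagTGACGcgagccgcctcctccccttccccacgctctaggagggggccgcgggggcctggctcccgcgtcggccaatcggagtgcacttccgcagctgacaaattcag
Fosb: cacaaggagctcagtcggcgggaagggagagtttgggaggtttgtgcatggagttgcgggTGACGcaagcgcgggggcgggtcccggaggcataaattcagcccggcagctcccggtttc
Jun: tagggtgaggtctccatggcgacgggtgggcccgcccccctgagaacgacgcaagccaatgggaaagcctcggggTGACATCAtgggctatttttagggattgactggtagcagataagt
The *Fos* stretch is chr12:85473770-85473889 on the plus strand, with TGACG at 66 to 62 bases before the start. The others are on the minus strand, at chr1:191183334-191183453 for *Atf3*, chr8:84978749-84978868 for *Junb*, chr7:19310046-19310165 for *Fosb* and chr4:95052223-95052342 for *Jun*. The match in *Atf3* is on the reverse strand and ends 3 bases before the start, and TGACATCA in *Jun* lies at 45 to 38 bases before the start. The RefSeq starts used for *Atf3*, *Fosl2*, *Fosb* and 2 of the 3 *Maff* windows lie inside the gene as GENCODE draws it, and those for *Jund* and *Junb* lie 1210 and 30 bases before it. The windows of *Fosl2* and *Jund*, which held no match, are thus not those at the GENCODE starts.

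The main question for these genes is how they respond to MET inhibition. *Fos*, *Atf3*, *Junb*, *Fosl2* and *Jund* rose with capmatinib in both lines, and *Fosl1*, *Fosb* and *Jun* fell in both. *Maff* rose in NF1-MET and did not pass the test in NF1-MET;sgP53. Thus 6 of the 9 genes were higher and 3 lower in NF1-MET (quasi-likelihood F-test in edgeR, Benjamini-Hochberg adjusted), where 35.5% of all 14496 genes tested were higher and 34.7% lower. For NF1-MET;sgP53 the count was 5 higher and 3 lower, where 34.2% of all genes were higher and 33.4% lower. Calls were thus common throughout the transcriptome. The median absolute log2 fold change of the 9 genes was 1.14 in NF1-MET, against 0.41 for all genes tested, and 0.90 in NF1-MET;sgP53, against 0.40. These genes and the lists below were chosen with earlier results of these data known, so such contrasts with all genes are descriptions.

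**Figure D1:**
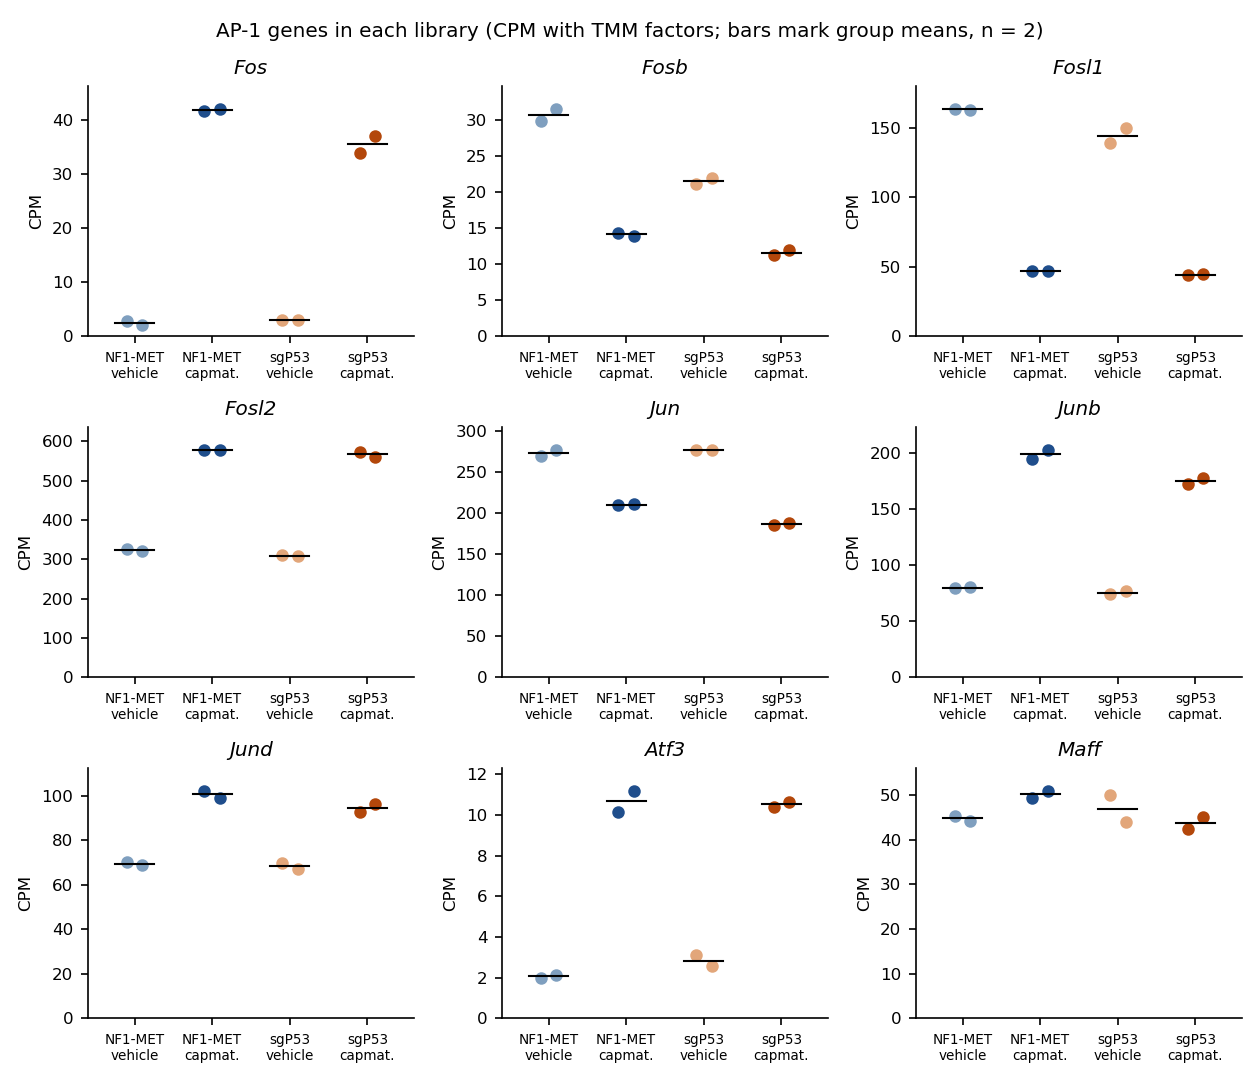
Level of each AP-1 gene in CPM (y axis, from 0) in each of the 8 libraries (points) by line and treatment, with bars at the mean of the 2 libraries of a group. *Fos* lies between 2.16 and 3.05 CPM in the vehicle libraries and between 34.0 and 42.2 CPM in the capmatinib libraries, while *Fosl1* drops from 139 to 164 CPM to 44.0 to 47.2 CPM.

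The FOS subfamily changed in both directions. *Fos* (chr12:85473890-85477273 in mm10) encodes c-FOS, the founding immediate-early member. It had 2.87 and 2.16 CPM in NF1-MET vehicle and 41.7 and 42.2 CPM in NF1-MET capmatinib, a 16.6-fold rise (log2 fold change 4.05 ± 0.087 SE, adjusted p = 5.11e-28 by edgeR). The NF1-MET;sgP53 libraries had 3.05 and 2.996 CPM in vehicle and 34.0 and 37.2 CPM with capmatinib, which is 11.8-fold higher (log2 fold change 3.56 ± 0.084 SE, adjusted p = 9.72e-20 by edgeR). This change exceeded in absolute size that of 98.8% of genes in NF1-MET cells and of 98.7% in NF1-MET;sgP53 cells. In rank by RPKM among 14472 genes, *Fos* moved from the 29.0th to the 82.7th percentile in NF1-MET.

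*Fosl1* (chr19:5447547-5455946), which encodes FRA-1, showed the opposite. It had 164 and 163 CPM in NF1-MET vehicle and 47.2 and 47.0 CPM with capmatinib, 3.51-fold lower (log2 fold change −1.81 ± 0.031 SE). The corresponding values in NF1-MET;sgP53 were 139 and 149.8 CPM and 44.0 and 44.5 CPM, 3.26-fold lower (−1.71 ± 0.040 SE). All 4 vehicle libraries were above all 4 capmatinib libraries. Of the merged exons of *Fosl1*, 57.2% overlap *Ccdc85b* on the other strand, and whether the counting used strand is not given in the sources used here. *Ccdc85b* rose with capmatinib in both lines (log2 fold change 0.66 and 0.39), opposite to *Fosl1*.

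*Fosl2* (chr5:32135801-32157842) encodes FRA-2, the other FOS-related antigen. It went from 328 and 322 CPM to 579 and 577 CPM in NF1-MET, 1.76-fold higher (log2 fold change 0.81 ± 0.022 SE). The rise in NF1-MET;sgP53 was from 311 and 309 CPM to 574 and 560.3 CPM, 1.83-fold (0.87 ± 0.028 SE). *Fosb* (chr7:19302696-19310051) encodes FOSB, another partner of JUN proteins. It had 29.9 and 31.6 CPM in NF1-MET vehicle and 14.4 and 14.0 CPM with capmatinib, 2.20-fold lower (−1.14 ± 0.062 SE). It fell in NF1-MET;sgP53 from 21.1 and 22.05 CPM to 11.2 and 11.99 CPM, 1.86-fold (−0.90 ± 0.071 SE). *Fos* and *Fosb*, both classed as immediate-early genes, thus moved in opposite directions in each line.

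**Figure D2:**
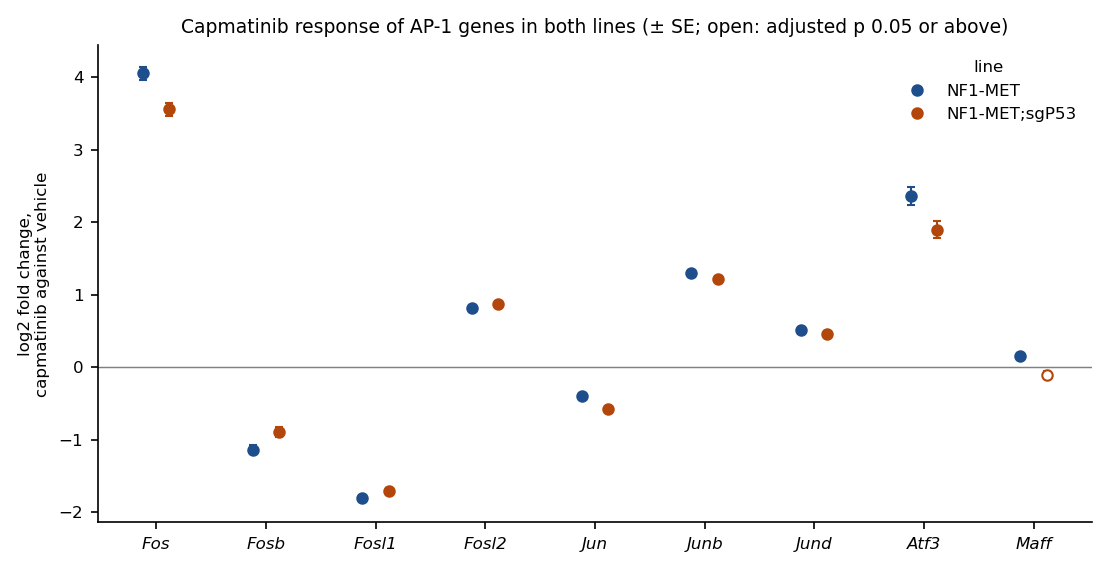
Log2 fold change of capmatinib against vehicle (y axis) for each AP-1 gene in NF1-MET and NF1-MET;sgP53, with SE bars from edgeR and filled points where the adjusted p was under 0.05. *Maff* in NF1-MET;sgP53, at −0.10, is the open point.

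The JUN subfamily shifted from *Jun* towards *Junb*. *Junb* (chr8:84974484-84978718) encodes JUNB, often described as a weaker activator that can counter c-JUN at some sites. It went from 79.3 and 80.3 CPM to 195 and 203 CPM in NF1-MET, 2.47-fold higher (log2 fold change 1.30 ± 0.030 SE). The NF1-MET;sgP53 values were 74.3 and 76.9 CPM in vehicle and 173 and 178 CPM with capmatinib, 2.32-fold higher (1.22 ± 0.036 SE). *Jun* (chr4:95049034-95052222), a gene with 1 exon that encodes c-JUN, had 270.0 and 277 CPM in NF1-MET vehicle and 210.1 and 211 CPM with capmatinib (−0.39 ± 0.025 SE). Its level in NF1-MET;sgP53 was 277 and 277 CPM in vehicle and 185.2 and 188 CPM with capmatinib (−0.57 ± 0.030 SE). The fall was 1.31-fold and 1.48-fold, smaller than that of *Fosl1* and *Fosb* in each line, and no vehicle library overlapped a capmatinib library.

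*Jund* (chr8:70698949-70700616) encodes JUND, the JUN protein that resting cells are known to keep. It had 70.1 and 68.7 CPM in NF1-MET vehicle and 102 and 98.9 CPM with capmatinib (log2 fold change 0.52 ± 0.033 SE). It rose in NF1-MET;sgP53 from 69.6 and 67.2 CPM to 92.6 and 96.3 CPM (0.47 ± 0.035 SE). The antisense gene *Gm11175* overlaps 52.6% of the *Jund* exon but had only 0.523 to 1.39 CPM in the 8 libraries. *Junos*, antisense to *Jun* and overlapping 7.28% of its exon, fell by 2.63 on the log2 scale in NF1-MET, from 12.04 and 10.8 CPM to 1.99 and 1.77 CPM, and by 2.63 in NF1-MET;sgP53. *Prdx2* overlaps 7.52% of the exons of *Junb* and had log2 fold changes of 0.036 (adjusted p = 0.272 by edgeR) and 0.072 (adjusted p = 0.0468 by edgeR).

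*Atf3*, a stress-induced member that can pair with JUN proteins and often represses its targets, lies at chr1:191170296-191218039. It had 1.98 and 2.13 CPM in NF1-MET vehicle and 10.2 and 11.2 CPM with capmatinib, 5.14-fold higher (log2 fold change 2.36 ± 0.12 SE, adjusted p = 2.23e-17 by edgeR). The rise in NF1-MET;sgP53 was from 3.11 and 2.57 CPM to 10.4 and 10.7 CPM, 3.73-fold (1.899 ± 0.11 SE, adjusted p = 1.43e-12 by edgeR). The vehicle values rest on 72 and 85 counts in NF1-MET and 107 and 110 counts in NF1-MET;sgP53, beside 104 and 86 counts and 105 and 128 counts for *Fos*. These were the AP-1 genes with the fewest reads.

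*Maff* (chr15:79346621-79359076) encodes a small MAF protein, which lacks an activation domain. It had 45.4 and 44.2 CPM in NF1-MET vehicle and 49.4 and 50.9 CPM with capmatinib (log2 fold change 0.15 ± 0.042 SE, adjusted p = 0.0022 by edgeR). With library totals in place of TMM factors the change was −0.037, and without NF1-MET capmatinib replicate 2 the adjusted p was 0.0564. The NF1-MET;sgP53 groups overlapped, at 49.9 and 43.9 CPM in vehicle and 42.3 and 45.0 CPM with capmatinib (−0.10 ± 0.052 SE, adjusted p = 0.0927 by edgeR). That difference passed the test without NF1-MET;sgP53 vehicle replicate 2 (−0.19, adjusted p = 0.00243) and without the filter on low counts (−0.12, adjusted p = 0.0218). The other 8 genes kept their direction and passed the test under all 12 alternatives run in each line. Library totals moved the median log2 fold change over all genes to −0.18 in NF1-MET cells and −0.12 in NF1-MET;sgP53 cells, and *Maff* in NF1-MET was the single called AP-1 change whose sign this turned.

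Per length of merged exons, the order of the AP-1 genes changed with treatment. In NF1-MET vehicle *Jun* led at 85.8 ± 1.63 RPKM (SD, n = 2), followed by *Fosl1* at 80.3 ± 0.30, *Jund* at 41.6 ± 0.58, *Junb* at 34.7 ± 0.29, *Fosl2* at 33.6 ± 0.39, *Maff* at 17.3 ± 0.32 and *Fosb* at 4.93 ± 0.19 RPKM. *Fos* at 1.07 ± 0.21 and *Atf3* at 0.955 ± 0.049 RPKM overlapped, while all other neighbours were apart in both libraries. With capmatinib *Junb* led at 86.5 ± 2.42 RPKM, ahead of *Jun* at 66.0 ± 0.20, *Jund* at 60.3 ± 1.4 and *Fosl2* at 59.7 ± 0.11 RPKM, of which the last pair overlapped. *Fosl1* stood at 23.2 ± 0.076, *Maff* at 19.3 ± 0.41, *Fos* at 17.8 ± 0.12, *Atf3* at 4.96 ± 0.34 and *Fosb* at 2.27 ± 0.049 RPKM. NF1-MET;sgP53 had the vehicle order of NF1-MET except that *Atf3* at 1.32 ± 0.18 and *Fos* at 1.29 ± 0.018 RPKM, again overlapping, changed places. In NF1-MET;sgP53 capmatinib *Junb* led at 76.3 ± 1.64 RPKM and *Fosl2* at 58.6 ± 1.01 overlapped *Jun* at 58.5 ± 0.68 RPKM. The leading gene depended on the length used. In NF1-MET vehicle *Fosl1* led with the longest transcript as length, at 87.6 ± 0.33 RPKM against 85.8 ± 1.63 for *Jun*, and with exon bases outside other genes, at 188 ± 0.71 against 92.6 ± 1.75 RPKM. In NF1-MET;sgP53 vehicle *Jun* still led with the longest transcript and *Fosl1* with exon bases outside other genes. With capmatinib *Junb* led in both lines with the longest transcript, and *Jund* with exon bases outside other genes.

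Within the FOS subfamily, *Fosl1* led in vehicle and *Fosl2* with capmatinib. The 4 FOS genes summed to 119.9 ± 0.72 RPKM in NF1-MET vehicle and 103 ± 0.12 RPKM with capmatinib (SD, n = 2), and in NF1-MET;sgP53 to 108 ± 3.64 and 97.4 ± 0.18 RPKM. With exon bases outside other genes as length these sums were 227 ± 1.12 and 134 ± 0.22 RPKM in NF1-MET, and 203 ± 8.58 and 126 ± 0.42 RPKM in NF1-MET;sgP53. With the longest transcript as length they were 147 ± 0.83 and 137 ± 0.20 RPKM in NF1-MET, and 132 ± 3.97 and 130.5 ± 0.12 RPKM in NF1-MET;sgP53, where the difference was within the SD of the vehicle libraries. The size of the fall thus depended on the length. With merged exons *Fosl1* made up 67.005% ± 0.15 of this sum in NF1-MET vehicle and 22.5% ± 0.048 with capmatinib. *Fosl2* went from 28.0% ± 0.16 to 58.0% ± 0.045, *Fos* from 0.890% ± 0.17 to 17.3% ± 0.14, and *Fosb* from 4.11% ± 0.18 to 2.20% ± 0.045. The *Fosl1* share in NF1-MET;sgP53 went from 65.9% ± 1.20 to 22.4% ± 0.14 and the *Fosl2* share from 29.7% ± 1.13 to 60.2% ± 1.15. If only exon bases outside other genes are taken as length, the *Fosl1* share in NF1-MET becomes 82.6% in vehicle and 40.4% with capmatinib, beside 14.8% and 44.6% for *Fosl2*. The leading gene of the subfamily thus changed from *Fosl1* to *Fosl2* with either length.

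**Figure D3:**
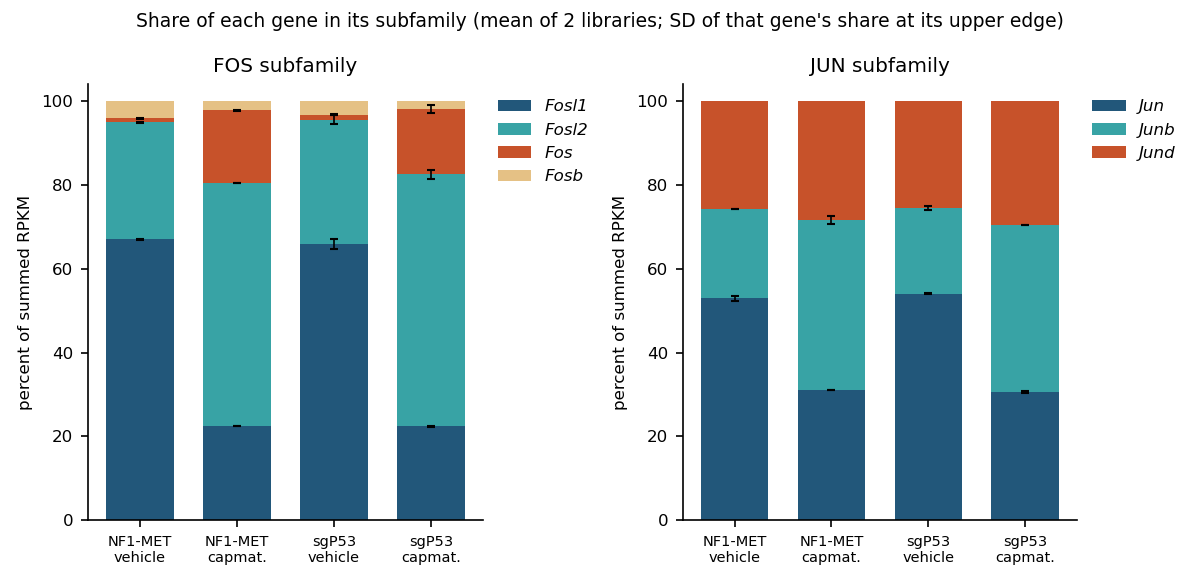
Share of each gene in the summed RPKM of the FOS subfamily and of the JUN subfamily, in percent, as the mean of the 2 libraries of a group, with the SD of a gene's share as a bar. In NF1-MET, *Fosl1* shrinks from 67.005% ± 0.15 to 22.5% ± 0.048 and *Junb* grows from 21.4% ± 0.0025 to 40.7% ± 0.90.

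The 3 JUN genes summed to 162 ± 1.34 RPKM in NF1-MET vehicle and 213 ± 1.22 RPKM with capmatinib, and in NF1-MET;sgP53 to 161 ± 0.17 and 191 ± 3.86 RPKM. *Jun* went from 52.9% ± 0.56 of the sum to 31.0% ± 0.082 and *Junb* from 21.4% ± 0.0025 to 40.7% ± 0.90 in NF1-MET, with *Jund* at 25.7% ± 0.57 and 28.3% ± 0.82. The shares in NF1-MET;sgP53 went from 54.0% ± 0.085 to 30.6% ± 0.26 for *Jun* and from 20.4% ± 0.51 to 39.9% ± 0.053 for *Junb*. Which JUN gene led with capmatinib depended on the length. With exon bases outside other genes, *Jund* had 43.5%, *Junb* 32.1% and *Jun* 24.4% in NF1-MET capmatinib, against 40.3%, 17.2% and 42.5% in vehicle. All 9 genes summed to 300.2 ± 0.36 RPKM in NF1-MET vehicle and 340.1 ± 1.86 RPKM with capmatinib, and in NF1-MET;sgP53 to 288 ± 1.67 and 311 ± 4.85 RPKM. This direction turned with exon bases outside other genes, which gave 463 ± 0.53 and 450.2 ± 0.42 RPKM in NF1-MET, and 438 ± 5.57 and 413 ± 6.99 RPKM in NF1-MET;sgP53.

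The lines were also compared within each treatment. In vehicle, 0 genes were higher and 4 were lower in NF1-MET;sgP53 than in NF1-MET, where 10.9% of all genes tested were higher and 12.3% lower. *Fosb* had the largest difference of the 4, 1.44-fold lower (log2 difference −0.53 ± 0.056 SE, adjusted p = 4.41e-07 by edgeR), and passed the test under all 12 alternatives. *Fosl1* was 1.14-fold lower (−0.19 ± 0.033 SE), *Junb* 1.07-fold lower (−0.10 ± 0.032 SE) and *Fosl2* 1.06-fold lower (−0.088 ± 0.025 SE). *Junb* kept its call in 4 of 12 alternatives and *Fosl2* in 7, and both lost it whichever of the 4 libraries was left out. With library totals, *Fosb* was the single AP-1 gene still called. *Atf3* did not overlap between the lines but missed the threshold (0.44 ± 0.18 SE, adjusted p = 0.0901 by edgeR). It passed in 1 model of all 8 libraries (adjusted p = 0.0357 by edgeR) and without NF1-MET;sgP53 vehicle replicate 2 (adjusted p = 0.0251 by edgeR). Without that library *Maff* also passed (0.16, against 0.043 with it), and without NF1-MET vehicle replicate 1 *Fos* did (0.49, against 0.26 with it). The differences of *Jun* (−0.0018 ± 0.026 SE) and *Jund* (−0.041 ± 0.033 SE) did not pass in any alternative.

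With capmatinib, 0 genes were higher and 5 were lower in NF1-MET;sgP53, where 5.94% of all genes tested were higher and 6.34% lower. The 5 genes were *Fosb* (log2 difference −0.28 ± 0.075 SE), *Fos* (−0.24 ± 0.049 SE), *Maff* (−0.20 ± 0.043 SE), *Junb* (−0.18 ± 0.032 SE) and *Jun* (−0.17 ± 0.029 SE). For each of them both NF1-MET;sgP53 libraries lay below both NF1-MET libraries, as they also did for the uncalled *Fosl1*, *Fosl2* and *Jund*. The median log2 difference of the 9 genes was −0.17, against a median of all genes tested of −0.0010. With library totals none of the 5 was called, and the median of all genes moved to 0.11. The calls of *Fos* and *Maff* were also lost without NF1-MET capmatinib replicate 2, that of *Fosb* without NF1-MET capmatinib replicate 1, and those of all 3 without NF1-MET;sgP53 capmatinib replicate 1. *Jun* and *Junb* kept their calls in 11 of 12 alternatives, library totals being the exception. The differences of *Fosl1*, *Fosl2*, *Jund* and *Atf3* were −0.089, −0.027, −0.088 and −0.028 and did not pass. The comparisons between lines share libraries with those between treatments and are not independent of them.

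**Figure D4:**
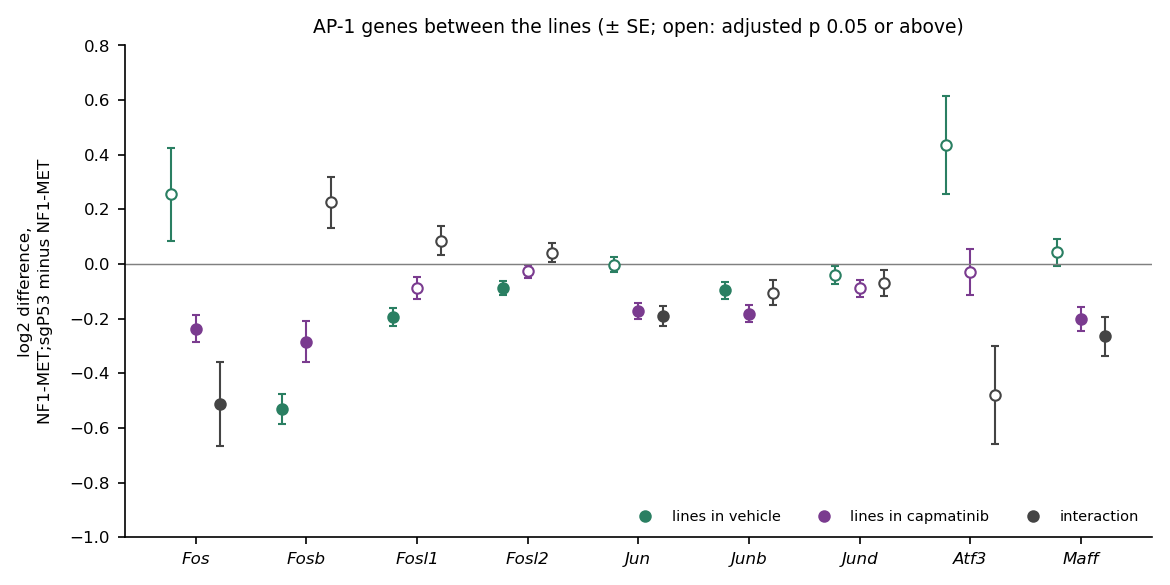
Log2 difference of NF1-MET;sgP53 minus NF1-MET (y axis) for each AP-1 gene in vehicle and in capmatinib, and the interaction, which is the capmatinib change in NF1-MET;sgP53 minus that in NF1-MET, with SE bars from edgeR and filled points where the adjusted p was under 0.05. In vehicle 4 points are filled, in capmatinib 5 and for the interaction 3, all of them below 0.

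Whether the lines responded differently to capmatinib was tested by the interaction of line and treatment over all 8 libraries. The test called 0 of the 9 genes higher and 3 lower, where 3.85% of all genes were higher and 5.86% lower. *Fos* rose less in NF1-MET;sgP53 (interaction −0.51 ± 0.15 SE, adjusted p = 0.0349 by edgeR) and *Jun* fell more (−0.19 ± 0.037 SE, adjusted p = 0.00105 by edgeR). The third was *Maff* (−0.26 ± 0.071 SE, adjusted p = 0.016 by edgeR), with 0.15 in NF1-MET and −0.10, which did not pass, in NF1-MET;sgP53. *Jun* kept its call in 14 of 15 alternatives and lost it with library totals. *Fos* kept it in 7 of 15, with adjusted p-values from 0.00791 to 0.315. It lost it without any 1 of 6 libraries, the exceptions being NF1-MET vehicle replicate 1 and NF1-MET;sgP53 capmatinib replicate 2. *Maff* kept it in 9 of 15, with adjusted p-values from 0.000961 to 0.647, and lost it without replicate 2 of NF1-MET vehicle or NF1-MET capmatinib and without replicate 1 of either NF1-MET;sgP53 group. The interaction of *Atf3* was close to that of *Fos* in size (−0.48 ± 0.18 SE, adjusted p = 0.103 by edgeR) but passed in 0 of 15 alternatives.

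Other bZIP proteins that pair or compete with AP-1 were a list of 12 genes, of which 8 passed the filter. With capmatinib 4 were higher and 2 lower in NF1-MET, and 4 higher and 1 lower in NF1-MET;sgP53. Of all genes, 35.5% and 34.2% were higher and 34.7% and 33.4% lower. The median log2 fold changes of the list were 0.31 and 0.36, against 0.0020 and 0.0049 for all genes. *Maf*, a large MAF factor, went from 10.0 and 10.2 CPM to 47.0 and 46.2 CPM in NF1-MET, 4.55-fold higher, and from 14.4 and 14.7 CPM to 55.3 and 56.6 CPM in NF1-MET;sgP53, 3.84-fold higher. *Jdp2*, a JUN partner known to repress AP-1 sites, rose from 23.5 and 23.1 CPM to 37.99 and 36.6 CPM in NF1-MET (log2 fold change 0.66 ± 0.053 SE) and likewise in NF1-MET;sgP53 (0.72 ± 0.048 SE). *Atf7*, a relative of ATF2, also rose (0.46 ± 0.032 SE and 0.49 ± 0.039 SE). The small MAF genes related to *Maff* moved apart, since *Mafk* rose in both lines (0.17 and 0.23), except that with library totals it was called in neither line, at −0.020 and 0.11, and *Mafg* fell in both (−0.30 and −0.27).

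The list of kinases and factors upstream of AP-1 held called genes at about the share of all genes. Of 16 genes, 4 were higher and 8 lower in NF1-MET, and 3 higher and 7 lower in NF1-MET;sgP53, where 35.5% and 34.2% of all genes were higher and 34.7% and 33.4% lower. Their median log2 fold changes were −0.13 and −0.11, against 0.0020 and 0.0049 for all genes. *Rps6ka1*, which encodes the ERK-activated kinase RSK1, had 9.48 and 10.9 CPM in NF1-MET vehicle and 4.88 and 4.14 CPM with capmatinib (−1.21 ± 0.11 SE), and fell in NF1-MET;sgP53 too (−1.13 ± 0.11 SE). *Elk3*, an ETS factor that works with SRF at immediate-early promoters, had 283 and 281 CPM in NF1-MET vehicle and 149.6 and 146 CPM with capmatinib (−0.95 ± 0.026 SE), beside −0.81 ± 0.031 SE in NF1-MET;sgP53. *Srf* itself, the serum response factor, rose from 70.9 and 69.9 CPM to 105 and 105 CPM in NF1-MET (0.56 ± 0.031 SE) and less in NF1-MET;sgP53 (0.26 ± 0.036 SE), a difference that the interaction test called (−0.32, adjusted p = 2.89e-05 by edgeR). The ERK gene *Mapk3* (−0.29 and −0.23) fell in both lines. With library totals the list had 1 higher and 10 lower in NF1-MET and 0 higher and 8 lower in NF1-MET;sgP53, and the interaction of *Srf* was not called. RNA levels do not measure kinase activity.

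Genes often described as AP-1 targets went both ways. Of 22 genes, 21 passed the filter, and in each line 9 were higher, 11 lower and 1 did not pass, beside 35.5% of all genes higher and 34.7% lower in NF1-MET. The median log2 fold changes were −0.70 in NF1-MET cells and −0.46 in NF1-MET;sgP53 cells, against 0.0020 and 0.0049 for all genes. *Areg*, the EGFR ligand amphiregulin, had 27.8 and 26.6 CPM in NF1-MET vehicle and 0.614 and 0.937 CPM with capmatinib, 34.1-fold lower. Its NF1-MET;sgP53 values were 12.04 and 10.3 CPM in vehicle and 0.312 and 0.358 CPM with capmatinib, 32.9-fold lower. *Dusp1*, a phosphatase that switches off MAP kinases, rose from 45.1 and 42.3 CPM to 268 and 271 CPM in NF1-MET, 6.10-fold, and 5.45-fold in NF1-MET;sgP53. The EGFR ligands *Hbegf* (−2.21 and −2.14) and *Ereg* (−1.37 and −1.24) and the cell cycle gene *Ccnd1* (−1.43 and −1.44) also fell, while the protease gene *Plau* rose (2.00 and 1.58). Between the lines in vehicle, 3 of the 21 were higher and 11 lower in NF1-MET;sgP53, beside 10.9% and 12.3% of all genes, with a median log2 difference of −0.11, and *Areg* was 2.47-fold lower (adjusted p = 3.56e-11 by edgeR). With library totals 9 of the 21 were called in that comparison.

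Immediate-early genes outside AP-1 rose for the most part. Of 15 genes, 14 passed the filter, and 11 were higher and 2 lower in NF1-MET, and 11 higher and 3 lower in NF1-MET;sgP53. Of all genes, 35.5% and 34.2% were higher and 34.7% and 33.4% lower. Their median log2 fold changes were 1.01 and 0.91, against 0.0020 and 0.0049 for all genes. *Btg2*, an antiproliferative gene that p53 and growth factors can induce, rose from 6.83 and 6.39 CPM to 90.5 and 90.5 CPM in NF1-MET, 13.5-fold. Its rise in NF1-MET;sgP53 was from 7.22 and 6.58 CPM to 75.8 and 69.7 CPM, 10.6-fold. *Zfp36*, whose product degrades AU-rich mRNAs, rose 5.68-fold and 4.69-fold, and *Egr2*, known as a regulator of myelination, 4.54-fold and 3.57-fold. *Egr1*, an ERK-responsive factor often measured with *Fos*, rose from 360.1 and 358 CPM to 675 and 695 CPM in NF1-MET (0.92 ± 0.022 SE) and likewise in NF1-MET;sgP53 (0.98 ± 0.029 SE). *Klf4* (−0.81 and −0.69) and *Egr3* (−0.15 and −0.33) fell in both lines, and *Myc* fell in NF1-MET;sgP53 (−0.14), with −0.033 in NF1-MET not passing, though with library totals it was called lower in NF1-MET too (−0.22). Between the lines with capmatinib, 0 of the 14 were higher and 9 lower in NF1-MET;sgP53, beside 5.94% and 6.34% of all genes, with a median of −0.19, and with library totals 1 of them was called.

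**Figure D5:**
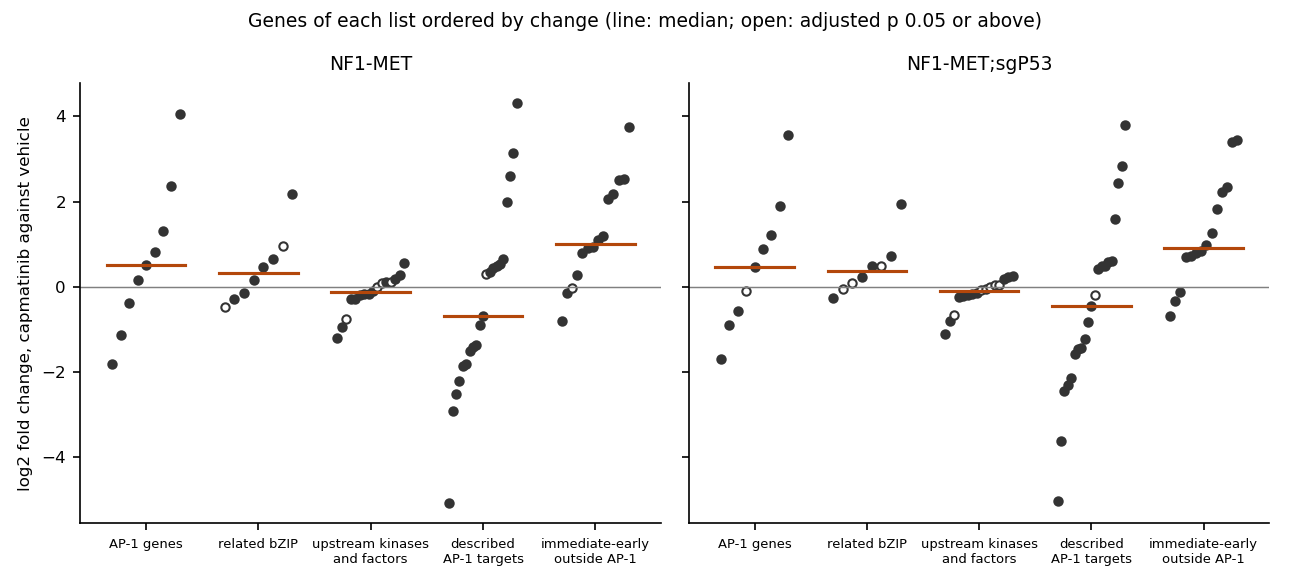
Log2 fold change of capmatinib against vehicle (y axis) for the AP-1 genes and the tested genes of each list in NF1-MET and NF1-MET;sgP53 (points), with the median of each list as a line. The immediate-early genes have their median at 1.01 and 0.91, the described AP-1 targets at −0.70 and −0.46.

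For each AP-1 gene, the gene with the most similar pattern was taken from 8651 candidates, as the smallest Euclidean distance between log2 CPM (with 0.5 CPM added) over the 8 libraries after centring each gene on its mean. *Fos* was nearest to *Btg2* (distance 0.355, against a median of 5.16 to all candidates). *Atf3* was nearest to *Fbn1*, the fibrillin gene (distance 0.218), which went on average from 240.2 to 1005 CPM in NF1-MET cells and from 312 to 1037 CPM in NF1-MET;sgP53 cells. *Fosl1* was nearest to *Parvb*, a focal adhesion gene (distance 0.114), which went on average from 234 to 67.7 CPM in NF1-MET cells and from 201 to 62.6 CPM in NF1-MET;sgP53 cells. The distances were 0.0713 from *Fosl2* to *Itm2b*, 0.180 from *Fosb* to *Cobll1*, 0.0714 from *Jun* to *Fbxo5*, 0.144 from *Junb* to *Sh3bp4*, 0.0559 from *Jund* to *BC004004* and 0.121 from *Maff* to *Commd5*. All genes were measured in the same 8 libraries, so this likeness is a description.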

How the data were processed

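RNA-seq counts of 8 libraries were used, 2 in each of 4 groups of line and treatment as GEO's labels give them. Poly(A) libraries were read from both fragment ends. The submitters' processing notes name bcl2fastq 1.9.0, Trim Galore 0.4.2, FastQC 0.11.7, STAR 2.5.2b and mm10. The deposited counts are the authors' raw reads per gene from STAR, not normalized. The annotation release and strand setting are not given in the sources used here, so overlapping exons are reported.

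Genes were kept if 2 or more of the 8 libraries had 10 or more counts. Each comparison of 2 groups was fitted on its own 4 libraries, and the interaction on all 8, with TMM factors and edgeR's quasi-likelihood F-test without bias adjustment (edgeR 4.0.16, limma 3.58.1, R 4.3.3). P-values were adjusted by Benjamini-Hochberg over all genes tested, at a threshold of 0.05. SE was derived from the log2 fold change and F. Exon lengths for RPKM came from GENCODE M21, which held 99.56% of the identifiers.

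Alternatives were DESeq2's size factors, library totals, DESeq2's Wald test (DESeq2 1.42.0), the bias-adjusted test, no filter, a stricter filter, a block for the replicate number, 1 model of all 8 libraries, and each library left out in 1 model of the 4 groups, which assumes that a lone library varies like the other groups. Other gene lengths for shares, sums and order, and library totals for single list genes, were added after seeing the data. The fits were tested on simulated data.

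All 9 AP-1 genes are named, with *Trp53*, the nearest gene of each and, from each list of related genes, the 3 called genes with the largest absolute change for capmatinib in NF1-MET whose higher group averaged 10 CPM or more. Some genes that these rules pick are not reported here. Overlapping genes, *Gm42418*, the Schwann cell markers, *Mafk*, *Mafg*, *Mapk3*, *Hbegf*, *Ereg*, *Ccnd1*, *Plau*, *Egr1*, *Egr3*, *Klf4* and *Myc* were named after their values were seen. The members and lists were chosen with earlier results of these data known. Squared differences between the libraries of a group were 1.86 to 8.29 times the sampling noise, so no library was a copy of another.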

Additional observations from a re-analysis of the deposited data

Results flagged for a closer look

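The interaction of line and capmatinib called 3 AP-1 genes, which means that their responses differed between the lines by a test of the difference itself. The interaction was −0.51 on the log2 scale for *Fos*, whose rise was 16.6-fold in NF1-MET and 11.8-fold in NF1-MET;sgP53. It was −0.19 for *Jun*, which fell 1.31-fold and 1.48-fold. It was −0.26 for *Maff*, with log2 fold changes of 0.15 and −0.10. *Fos* in vehicle rests on 86 to 128 counts per library, and its interaction was −0.31 (adjusted p = 0.315 by edgeR) without NF1-MET vehicle replicate 2. With library totals in place of TMM factors none of the 3 was called. Why the lines differ for these genes was not tested.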

How the results depend on the processing

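Of 567 recomputed log2 changes of AP-1 genes, 502 kept their direction and side of the threshold, 15 turned sign but were called in neither fit, 43 lost a call, 6 gained one and 1 called change turned sign, *Maff* with capmatinib in NF1-MET with library totals (−0.037). Library totals moved the share of higher genes among all called from 50.5% to 35.5% for capmatinib in NF1-MET, from 50.6% to 39.8% in NF1-MET;sgP53, from 47.1% to 63.3% between lines in vehicle, from 48.4% to 80.6% between lines in capmatinib and from 39.7% to 61.0% for the interaction. They left 1, 0 and 0 AP-1 genes called in the last 3 comparisons, in place of 4, 5 and 3, and 2023, 666 and 315 genes in all, in place of 3355, 1778 and 1407. DESeq2's Wald test called 3 AP-1 genes between lines in vehicle, 3 between lines in capmatinib and 1 for the interaction. It called 1915, 848 and 827 genes in all in these 3 comparisons. The cause was not tested. Leaving out 1 library gave 8 to 9 AP-1 genes for capmatinib in either line, 2 to 4 between lines in vehicle, 2 to 5 in capmatinib and 1 to 3 for the interaction. For all genes these ranges were 9085 to 9427, 9185 to 9291, 2489 to 2878, 1072 to 1328 and 970 to 1244. With the replicate block, 9, 8, 4, 5 and 3 AP-1 genes were called in the 5 comparisons, as without it, and 10141, 9866, 3994, 1777 and 1524 genes in all. Replicate numbers come from the labels, and correlations of the replicate differences between groups were −0.054 to 0.15, so they were not taken to pair the samples. The *Fosl1* share of FOS transcripts in NF1-MET vehicle and capmatinib, then NF1-MET;sgP53 vehicle and capmatinib, was 59.7%, 18.4%, 58.7% and 18.2% with the longest transcript as length, and 82.6%, 40.4%, 81.9% and 40.2% with exon bases outside other genes. Of 252 recomputed counts of called list genes, 221 stayed within 1.5 times and 31 moved further. Depth limits *Fos* and *Atf3* in vehicle, which had 72 to 128 counts per library.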
